A study of Mus musculus with 6 samples.

Results

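A set of 9 genes commonly used to follow osteoclast formation was measured in RAW264.7 cells, a mouse macrophage line that can be turned into osteoclasts in culture. They were picked by symbol from the authors' deposited table of 25124 genes, and each of the 9 has 1 entry there. They are Tnfrsf11a, Nfatc1, Mitf, Oscar, Dcstamp, Ocstamp, Acp5, Ctsk and Calcr. The study compared 3 samples of M1 cells, given lipopolysaccharide (LPS, a bacterial cell wall component) at 100 ng/ml and interferon-γ at 50 ng/ml, with 3 samples of M0 cells given neither. Both groups came from the same control line, made with a plasmid that encodes Cas9 but no guide RNA, and were grown in medium with 25 mM glucose. The labels name no RANK ligand or M-CSF among the treatments, and they do not say whether the control line is a single clone. They also leave unsaid if each replicate was its own culture, and the p-values here reflect sample-to-sample spread that may be technical only.

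Osteoclasts are the multinucleated cells that resorb bone, and they form by fusion of macrophage precursors. RANK ligand binds its receptor RANK (Tnfrsf11a), which acts through TRAF6, NF-κB and AP-1. Together with calcium signals from receptors that use ITAM adaptors, such as OSCAR, this raises NFATc1, the master transcription factor of the lineage. NFATc1 works with MITF and PU.1 on the genes for fusion proteins (DC-STAMP and OC-STAMP) and for the products of the mature cell, which include tartrate-resistant acid phosphatase (Acp5), cathepsin K (Ctsk) and the calcitonin receptor (Calcr). Interferons are known to inhibit this programme.

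Tnfrsf11a, Mitf, Nfatc1 and Dcstamp were expressed, although Dcstamp reached 1 TPM in M0 only, and the other 5 genes, among them the upstream receptor gene Oscar and the 3 genes of the mature osteoclast, were close to the detection limit in both states. RANK and Mitf were higher in M1 than in M0, by 1.21-fold and 1.98-fold, while Nfatc1 and Dcstamp were lower by 2.27-fold and 7.87-fold (ratios of mean TPM, a level scaled for transcript length and for the library's total). Ocstamp, Oscar, Acp5, Ctsk and Calcr stayed below 1 TPM in all 6 samples, with a highest value of 0.348 TPM and 48 reads over all libraries together. Of the 4 genes that could be tested, 2 were called higher and 2 lower (adjusted p under 0.05 by the Benjamini-Hochberg method over 11297 genes, from limma-trend fitted to log2(TPM + 1)). The background is large: 18.7% of all tested genes were called higher and 61.5% lower (80.2% in either direction, and 73.5% after a rescaling given with the depth), so a call as such does not set these genes apart. Groups did not overlap for any of the 4, which held for 81.4% of all tested genes, 19.6% with M1 higher and 61.8% with M1 lower. Dcstamp entered the test only through M0 and had to differ, so its call and its lack of overlap add no support. In RNA from whole cultures, fewer cells expressing a gene and less RNA per cell cannot be told apart.

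Libraries held 15615639 to 20283180 reads in genes. The 8 macrophage markers were all at 1 TPM or more in every sample, and their summed level was 2653 to 2901 TPM in M0 and 2315 to 2351 TPM in M1. The sum rests mostly on Lyz2, Cd68 and Cd14 and hides opposite changes, since Adgre1, Fcgr1 and Mertk rose (24.8-fold, 3.46-fold and 2.29-fold) while Lyz2, Itgam, Csf1r and Cd68 fell. After rescaling Csf1r and Cd68 were no longer called, with the sign of Cd68 turned (log2 fold change 0.11). Cd14 was not called on the TPM scale and was called higher after rescaling (log2 fold change 0.39). The part of these markers in the results was not tested. Of 8 osteoblast and stromal markers, 7 were below 1 TPM in all samples, and the other, Spp1 (osteopontin), is also a macrophage product. Without Spp1 their sum was 0.057 to 0.588 TPM in M0 and 0.041 to 0.118 TPM in M1, with Sp7 at 0 throughout. The measured markers of T cells, B cells and melanocytes were below 1 TPM in every sample, with Cd8a at 0, as were 4 of 5 dendritic cell markers. The 4 genes used to check the labels, Nos2, Il1b, Irf1 and Cxcl10, summed to 23.5 to 24.1 TPM in M0 and 4502 to 4568 TPM in M1. On the TPM scale the tested genes had a median log2 fold change of -0.31. Dividing TPM by median-of-ratios factors brought that median to 0.02. Because this rescaling treats all genes of a sample alike, it is given below for the 4 tested members. For other genes whose change is described, it is given where it turns a direction or changes a call. "Rose" and "fell" refer to calls on the TPM scale.

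Tnfrsf11a (NM_009399, chromosome 1, 105780723 to 105847981, plus strand, mm10) encodes RANK, the receptor through which osteoclast precursors sense RANK ligand. It stood at 17.6, 16.5 and 16.1 TPM in M0 replicates 1 to 3 and at 20.7, 20.4 and 19.7 TPM in M1 replicates 1 to 3. Every M1 sample lay above every M0 sample, and the gap was small beside the level. The log2 fold change was 0.26 (SE 0.06, limma adjusted p = 0.0013). After rescaling it was 0.61 (SE 0.06, limma adjusted p = 5.1e-06). Its log2 fold change in the authors' deposited table was 0.64, so the size of the rise depended on the scale while its direction did not. In M0 it was the member with the highest level, and in M1 it came behind Mitf.

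Nfatc1 (NM_001164111, chromosome 18, 80606205 to 80708173, minus strand) encodes the calcium-regulated factor that switches on most osteoclast genes. Its level was 8.19, 9.09 and 8.84 TPM in M0 and 3.68, 3.73 and 4.12 TPM in M1. All 3 M1 samples were under 5 TPM and all 3 M0 samples above 8 TPM, with 1652 and 813 reads behind the groups. The log2 fold change was -1.0 (SE 0.07, limma adjusted p = 1.5e-07), and -0.69 after rescaling (SE 0.06, limma adjusted p = 3.5e-06). The authors' deposited table gave -0.80.

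Mitf (NM_001113198, chromosome 6, 97807058 to 98021358, plus strand) encodes a basic helix-loop-helix leucine zipper factor that is needed for osteoclast function and for melanocytes. It had 12.6, 15.5 and 14.3 TPM in M0 and 26.99, 27.97 and 29.26 TPM in M1. The lowest M1 sample was well above the highest M0 sample. The log2 fold change was 0.94 (SE 0.07, limma adjusted p = 2.7e-07), and 1.29 after rescaling (SE 0.06, limma adjusted p = 2.7e-08). The authors' deposited table gave 1.35. The table has 1 entry for the gene, so its transcripts from different start sites were not separated.

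Dcstamp (NM_001289508, chromosome 15, 39745930 to 39760938, plus strand) encodes DC-STAMP, a membrane protein required for fusion of precursors. It was at 1.78, 2.13 and 1.57 TPM in M0 and at 0.294, 0.223 and 0.179 TPM in M1. The M0 libraries held 51, 59 and 38 reads and the M1 libraries 9, 7 and 5, so the M1 level rested on 21 reads in all. Dcstamp passed the filter of 1 TPM in 3 samples only through M0, and a gene that passes in this way had to differ. Its log2 fold change of -1.19 (SE 0.09, limma adjusted p = 3.0e-07) was taken on log2(TPM + 1), where low genes show less than their full change. After rescaling it was -1.04 (SE 0.09, limma adjusted p = 2.5e-06). With a pseudocount of 0.1 TPM it was -2.54, and the authors' deposited table gave -2.56. The ratio of the reads, adjusted for depth, was 0.127 (95% interval 0.0764 to 0.202, exact binomial, covering counting error only).

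**Figure D1:**
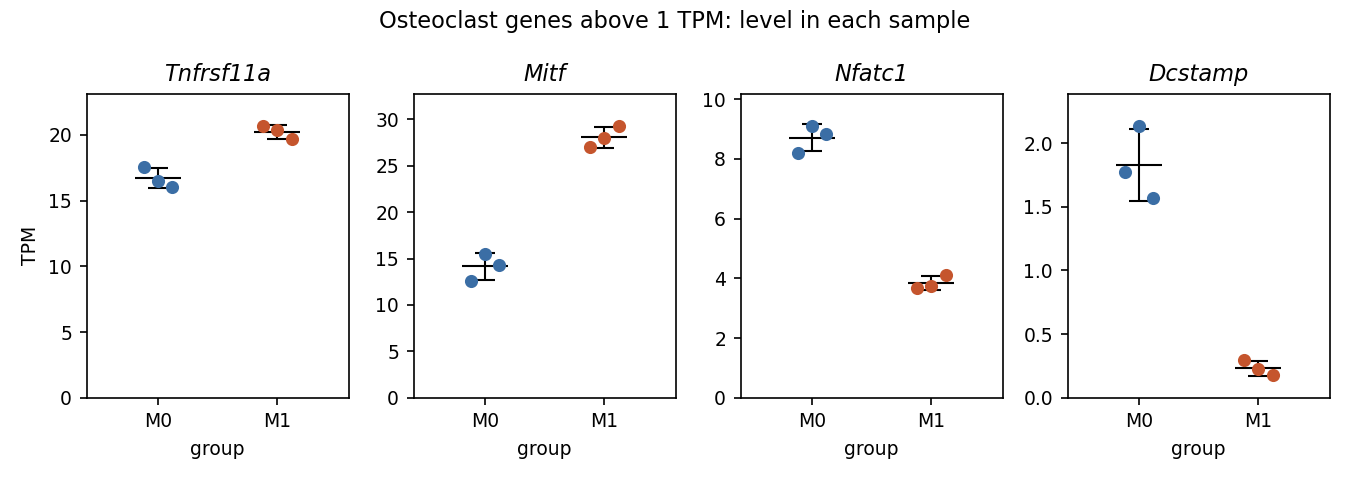
Level in TPM (vertical axis, from 0, a separate scale in each panel) of the 4 osteoclast genes that reached 1 TPM, in each of 3 M0 and 3 M1 samples (points), with the mean and SD (black lines). M1 samples lie above M0 samples for Tnfrsf11a and Mitf and below them for Nfatc1 and Dcstamp.

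The other fusion gene, Ocstamp (NM_029021, chromosome 2, 165395450 to 165400394, minus strand), encodes OC-STAMP, which acts beside DC-STAMP. It had 0.195, 0.101 and 0.348 TPM in M0 and 0.092, 0.089 and 0.034 TPM in M1, from 6, 3 and 9 reads and 3, 3 and 1 reads. The lowest M0 library and 2 M1 libraries thus held 3 reads each, so the groups were apart in TPM but touched in reads. The depth-adjusted ratio of reads was 0.348 (95% interval 0.123 to 0.874, exact binomial, counting error only). Without the filter on low values it did not pass (limma adjusted p = 0.077). In the authors' deposited table its log2 fold change was -1.20 with an adjusted p of 0.32.

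Oscar (NM_175632, chromosome 7, 3609815 to 3616157, minus strand), the collagen-binding receptor that signals through an ITAM adaptor, was at 0.069, 0.144 and 0 TPM in M0 and at 0.032, 0 and 0.036 TPM in M1. These values stand for 6 reads in M0 and 2 in M1, and the groups overlapped. Ctsk (NM_007802, chromosome 3, 95499210 to 95509387, plus strand), the collagen-degrading protease of the osteoclast, was at 0.04, 0.042 and 0.096 TPM in M0 and at 0.076, 0.037 and 0 TPM in M1. Its 4 and 3 reads gave a ratio of 0.672 with a 95% interval from 0.0984 to 3.97. Calcr (NM_001042725, chromosome 6, 3685720 to 3763623, minus strand), the receptor through which calcitonin restrains osteoclasts, had 0.055, 0.019 and 0.022 TPM in M0, 0.017 TPM in M1 replicate 1 and no read in the other two M1 libraries. The counts were 5 reads against 1, a ratio of 0.179 with a 95% interval from 0.00379 to 1.6. Acp5 (NM_007388, chromosome 9, 22126727 to 22130598, minus strand), which encodes tartrate-resistant acid phosphatase, the usual stain for osteoclasts, had no read in M0 and 1 read each in M1 replicates 1 and 2 (0.044 and 0.043 TPM). A count of 0 over the 3 M0 libraries allows up to 0.0505 TPM of Acp5 (3 reads). No difference was detectable at this depth for Oscar, Ctsk, Calcr or Acp5, and in the fit with no filter their limma adjusted p-values were 0.31, 0.51, 0.19 and 0.16. An annotated gene on the opposite strand overlaps an exon of Acp5, and neither the labels nor the headers say whether reads were counted by strand.

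**Figure D2:**
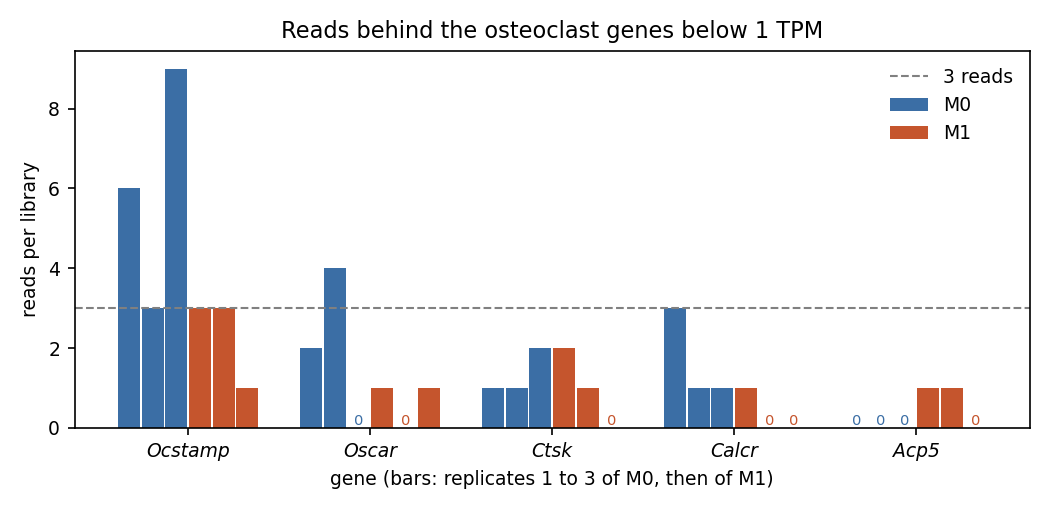
Reads in each library (vertical axis, bars from 0) for the 5 osteoclast genes that stayed below 1 TPM, with replicates 1 to 3 of M0 in blue and of M1 in orange; the dashed line marks 3 reads. Only Ocstamp and Oscar exceed 3 reads in any library, in M0, with highest counts of 9 and 4.

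By level, Tnfrsf11a, Mitf, Nfatc1 and Dcstamp followed each other in M0 with no overlap between neighbours (means of 16.7, 14.1, 8.71 and 1.83 TPM), and Dcstamp did not overlap Ocstamp. In M1 the order of the first 2 was exchanged, with Mitf at 28.1 and Tnfrsf11a at 20.2 TPM. Neighbours from Ocstamp downwards overlapped in both groups, except Calcr and Acp5 in M0, so their order is not resolved.

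The region before the transcription start of Acp5, Oscar and Ctsk is shown because MITF and NFATc1 are known activators of all 3 genes. The RNA of Mitf and Nfatc1 moved in opposite directions here, while that of the 3 genes stayed near 0 in both groups. A link between these was not tested. The region of Tnfrsf11a, which was expressed, stands beside them. Sequences are the 250 bases upstream of the start of the transcript in the deposited table, 5′ to 3′ on the gene's own strand, from RefSeq on GRCm38.p6. Both strands were searched for CATGTG and CACGTG (letters that MITF can bind), GGAAA (the core letters of an NFAT site) and TGANTCA (AP-1), and capitals mark every match; CACATG and TTTCC are matches on the opposite strand.
Acp5: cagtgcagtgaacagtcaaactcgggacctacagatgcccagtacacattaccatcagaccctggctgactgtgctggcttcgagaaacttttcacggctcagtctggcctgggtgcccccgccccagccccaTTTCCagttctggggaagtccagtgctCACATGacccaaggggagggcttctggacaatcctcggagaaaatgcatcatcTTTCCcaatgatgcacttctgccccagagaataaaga
Oscar: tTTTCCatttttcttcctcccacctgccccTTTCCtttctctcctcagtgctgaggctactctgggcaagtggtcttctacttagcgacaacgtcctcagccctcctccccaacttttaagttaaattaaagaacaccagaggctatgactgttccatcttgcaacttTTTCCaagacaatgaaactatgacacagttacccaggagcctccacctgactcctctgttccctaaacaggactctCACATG
Ctsk: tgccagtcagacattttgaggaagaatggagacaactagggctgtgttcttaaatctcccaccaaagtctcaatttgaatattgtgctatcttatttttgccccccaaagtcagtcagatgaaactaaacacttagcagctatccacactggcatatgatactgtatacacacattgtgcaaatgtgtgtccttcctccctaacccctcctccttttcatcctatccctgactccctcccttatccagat
Tnfrsf11a: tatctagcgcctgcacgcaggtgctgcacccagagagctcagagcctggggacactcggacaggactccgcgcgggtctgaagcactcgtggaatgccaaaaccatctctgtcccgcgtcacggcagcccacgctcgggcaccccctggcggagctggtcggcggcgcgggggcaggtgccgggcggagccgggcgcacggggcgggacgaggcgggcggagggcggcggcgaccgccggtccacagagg
The windows lie at chr9:22130599-22130848 (minus strand), chr7:3616158-3616407 (minus strand), chr3:95498960-95499209 (plus strand) and chr1:105780473-105780722 (plus strand). Acp5 holds CATGTG on the opposite strand starting 90 bases upstream and 2 GGAAA matches, and Oscar holds CATGTG starting 6 bases upstream and 3 GGAAA matches. Windows at other annotated starts of Acp5, not printed, hold no CATGTG and 1 GGAAA match each. No printed match shares a base with another. Ctsk and Tnfrsf11a hold none of the 4 motifs, which says only that these letters are not in these windows. Of 32851 windows of the same length in the RefSeq table, 12.3% hold CATGTG, 6.02% CACGTG, 55.6% GGAAA and 6.75% TGANTCA. The Tnfrsf11a window has 31 CpG dinucleotides, Oscar 2, Acp5 5 and Ctsk none, against a median of 6 over all windows. That contrast did not follow expression in every case, since the Calcr window holds 24 and Calcr was near 0. RefSeq windows were found for 6 of the 9 genes, and Nfatc1, Dcstamp and Ocstamp were not among them.

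Mitf and Nfatc1 each belong to a family, and the families changed in make-up. The MiT/TFE factors Mitf, Tfe3, Tfeb and Tfec bind related sites and can pair with each other. Mitf made up 27.0% ± 2.47 (SD, n = 3) of the family's summed TPM in M0 and 61.9% ± 0.493 in M1, and its share in each M1 sample exceeded that in each M0 sample. Tfeb, a regulator of lysosome genes, fell from 16.9 ± 0.389 to 2.37 ± 0.099 TPM (mean ± SD, n = 3, as in what follows), so its share went from 32.4% ± 1.1 to 5.23% ± 0.0623. Tfe3 fell from 21.1 ± 0.545 to 13.4 ± 1.01 TPM. Tfec, a macrophage member, stood at 0.102 ± 0.0146 TPM (8 reads) in M0 and at 1.58 ± 0.379 TPM (139 reads) in M1, and passed the filter only through M1, so it had to differ. The summed level of the 4 factors was 52.3 ± 0.671 TPM in M0 and 45.4 ± 1.89 TPM in M1. Shares within a sample do not depend on the rescaling, and with 3 samples against 3 an exact permutation test cannot go below p = 0.10, so they are given without a test.

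Among the NFAT factors, Nfatc1 fell together with Nfatc2, from 16.5 ± 0.0754 to 4.77 ± 0.487 TPM, and Nfatc3, from 20.6 ± 1.45 to 12.5 ± 1.95 TPM. Nfatc4 was too low to be tested, at 0.258 ± 0.0179 and 0.051 ± 0.0251 TPM. Nfat5, which responds to osmotic stress and not to calcineurin, had 10.4 ± 0.538 and 11.6 ± 1.22 TPM and did not pass (limma adjusted p = 0.096); rescaling made it a call in the higher direction. The share of Nfatc1 in the summed TPM of the 5 was 15.4% ± 0.198 in M0 and 11.7% ± 0.607 in M1, beside 29.3% ± 1.25 and 14.5% ± 0.891 for Nfatc2. The share of Nfat5 went the other way, from 18.4% ± 0.195 to 35.5% ± 1.79, the widest shift of the 5.

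**Figure D3:**
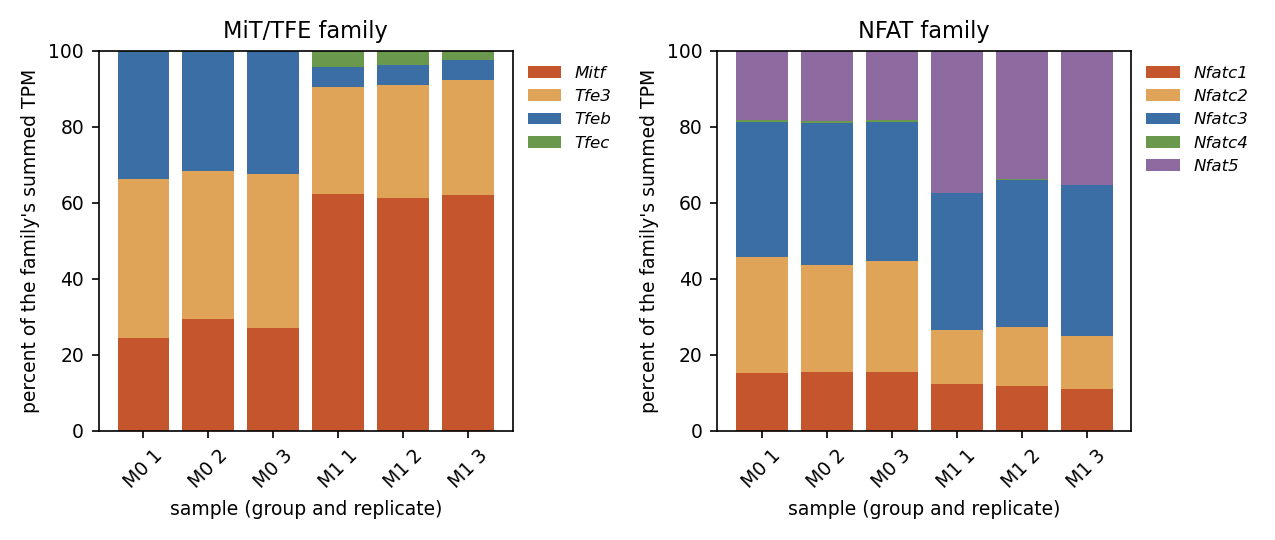
Share of each factor in the summed TPM of its family (vertical axis, percent) in each of the 6 samples (horizontal axis), for the MiT/TFE factors on the left and the NFAT factors on the right. Mitf takes 61.3% to 62.2% of its family in the M1 samples against 24.5% to 29.4% in the M0 samples. Nfatc1 takes 11.1% to 12.4% of its family in the M1 samples against 15.2% to 15.6% in the M0 samples.

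The other genes of the osteoclast pathway were grouped in 13 lists, which also hold the 9 members. Of 112 tested genes, each counted once, 42 rose (37.5%, against 18.7% of all tested genes) and 56 fell (50.0%, against 61.5%). After rescaling 59 were higher (52.7%, against 38.1% of all tested genes) and 35 lower (31.2%, against 35.4%). No test of these shares was made. The lists were chosen with earlier results of these data known. They pool activators with repressors and inhibitory cytokine genes, so the pooled counts give no direction for the pathway. Of the 112, 7 stayed below 1 TPM in all samples of 1 group (Tfec, Prdm1, Src and Ifnb1 in M0, and Dcstamp, Sh3pxd2a and Il10 in M1); they entered only through the other group and had to differ, so their calls add no support to a list's count. In each list the number higher is given first and the list's median log2 fold change stands beside that of all tested genes, -0.31. Percentages in a list are shares of its tested genes. They stand beside 18.7% higher and 61.5% lower of all tested genes, and 38.1% and 35.4% after rescaling.

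Ligands and receptors split. RANK ligand (Tnfsf11) and its decoy receptor osteoprotegerin (Tnfrsf11b) had no read in any library. Of 4 tested genes of this axis, 3 rose (75%) and 1 fell (25%, median 0.37). Csf1, which encodes M-CSF, the survival factor of osteoclast precursors, rose 42.7-fold, from 2.45 ± 0.199 to 105 ± 5.95 TPM, whereas its receptor Csf1r fell from 248 ± 7.70 to 176 ± 16.2 TPM, a call that was lost after rescaling (log2 fold change -0.13). Lgr4, described as a second receptor of RANK ligand, rose from 1.5 ± 0.113 to 2.48 ± 0.302 TPM.

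Signalling below RANK was mixed. Of 18 proximal genes, 6 rose (33.3%), 4 fell (22.2%) and 8 were not called (median 0.01). After rescaling 12 were higher (66.7%) and 3 lower (16.7%). The NF-κB subunits Relb and Nfkb1 rose 3.62-fold and 4.04-fold, to 54.0 ± 1.81 and 255 ± 19.2 TPM. Mapk14, the p38α kinase, fell from 82.3 ± 2.96 to 22.5 ± 0.770 TPM, and Map3k14, the kinase NIK of the non-canonical pathway, fell from 8.64 ± 0.416 to 3.70 ± 0.502 TPM. Tab2, an adaptor of the TAK1 kinase, had 42.7 ± 2.25 and 41.5 ± 4.72 TPM, which passed as higher with rescaling alone. Of 5 AP-1 genes, 1 rose (20%) and 4 fell (80%, median -0.33), against 1 (20%) and 2 (40%) after rescaling. Junb rose 5.13-fold to 450.2 ± 12.5 TPM, while Fos, the AP-1 subunit without which osteoclasts do not form, fell from 7.59 ± 0.703 to 3.13 ± 0.176 TPM and Jun from 80.8 ± 5.01 to 56.3 ± 1.52 TPM.

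The calcium arm leads to NFATc1. Of 14 tested genes of calcium entry, calcineurin and NFAT, 1 rose, 11 fell and 2 were not called (median -0.66), and the share that fell, 78.6%, stands beside 61.5% of all tested genes. After rescaling 3 were higher and 9 lower (median -0.33), a share lower of 64.3% beside 35.4%. Stim1, the calcium sensor that opens store-operated channels, fell 2.37-fold to 9.82 ± 0.727 TPM. Rcan1, an inhibitor of calcineurin and a known NFAT target, was the gene that rose, from 20.1 ± 0.927 to 22.7 ± 1.34 TPM. Ppp3cb, a calcineurin subunit, had 24.6 ± 0.611 and 23.1 ± 1.71 TPM and did not pass; rescaling turned its sign and made it a higher call. Of 11 genes of the ITAM pathway in which OSCAR works, 4 rose (36.4%) and 7 fell (63.6%, median -0.39). After rescaling 4 were higher and 4 lower (36.4% each). The share that fell was close to the 61.5% of all tested genes, as was the share lower after rescaling to 35.4%. The adaptor Lcp2 rose 3.63-fold to 140 ± 8.59 TPM and Blnk 1.26-fold to 40.3 ± 1.67 TPM. The kinase Tec and the exchange factor Vav3 fell 3.24-fold and 2.93-fold, to 14.7 ± 0.901 and 13.8 ± 0.849 TPM.

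Repressors of osteoclast differentiation rose in 7 of 9 cases (77.8%) and fell in 2 (22.2%, median 0.93), against 7 (77.8%) and 1 (11.1%) after rescaling. Irf8, a repressor of Nfatc1 induced by interferon-γ, rose from 115 ± 4.67 to 325 ± 19.8 TPM. Id3, an inhibitor of helix-loop-helix factors such as MITF, rose 4.02-fold to 200.5 ± 5.85 TPM. Nfkbie, the member with the smallest p, encodes a general inhibitor of NF-κB and rose 6.73-fold. Rbpj, a transcription factor of the Notch pathway, fell from 19.9 ± 0.782 to 16.6 ± 1.57 TPM. Rescaling turned its sign and the call was lost. Of the 2 genes listed as relieving repression, Jdp2 rose from 25.1 ± 1.26 to 69.7 ± 1.72 TPM. Prdm1, which encodes Blimp1, averaged 0.145 ± 0.0325 TPM in the M0 samples against 3.27 ± 0.699 in the M1 samples, and is one of the genes that passed the filter through 1 group. Of the MiT/TFE factors and PU.1 together, 3 were called higher (60%), Tfec included, and 2 lower (40%) on both scales (median 0.60). PU.1 (Spi1), a partner of MITF, rose 1.52-fold to 305 ± 5.36 TPM.

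Of 9 tested fusion genes, 2 were called higher and 7 lower on both scales (median -1.19, and -0.88 after rescaling). The share called lower, 77.8%, stands beside 61.5% of all tested genes and 35.4% after rescaling. Of the 7, 2 passed the filter only through M0, Dcstamp and Sh3pxd2a. They had to differ, both medians include them, and the -1.19 is Dcstamp's own value. The metalloprotease Adam8 fell 3.32-fold to 107 ± 7.53 TPM and Sirpa, a macrophage receptor for CD47, fell 2.89-fold to 136 ± 9.70 TPM, whereas its ligand Cd47 rose 2.20-fold to 164 ± 3.95 TPM and Cd44 rose 1.40-fold to 122 ± 6.45 TPM. Atp6v0d2, the proton pump subunit typical of osteoclasts and also needed for fusion, was too low to be tested, with 6 reads in M0 and 3 in M1.

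Genes of acid secretion gave different counts on the 2 scales. Of 18 tested, 4 rose (22.2%), 11 fell (61.1%) and 3 were not called (median -0.19). These shares were close to those of all tested genes, 18.7% and 61.5%. After rescaling 12 were higher (66.7%) and 2 lower (11.1%), beside 38.1% and 35.4% of all tested genes. The genes that rose on both scales included Snx10, a sorting nexin mutated in osteopetrosis, which went from 47.5 ± 2.25 to 355 ± 6.04 TPM, and Car2, carbonic anhydrase 2, which went from 21.7 ± 1.25 to 63.7 ± 1.77 TPM. Ostm1, the partner of the chloride transporter ClC-7, fell from 29.2 ± 1.64 to 16.7 ± 0.351 TPM, and Plekhm1, a regulator of lysosome traffic, from 24.1 ± 1.35 to 12.7 ± 1.44 TPM. Atp6v1e1, a subunit of the pump that many cells use, had 155 ± 3.93 and 145 ± 3.33 TPM and did not pass, and here too rescaling turned the sign to a higher call.

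Among 11 genes of matrix resorption and attachment, 6 were tested. Of these, 3 were called higher, Src included, and 3 lower (50% each, median -0.18), as after rescaling. Acp5, Ctsk and Calcr are 3 of the 5 untested genes, and the others are Mmp14 and Itgb3, the β3 integrin of the osteoclast. Mmp9, a gelatinase that osteoclasts and macrophages both make, fell from 35.8 ± 0.721 to 19.6 ± 0.960 TPM. Src, a kinase that osteoclasts need for their ruffled border, averaged 0.243 ± 0.0531 TPM over M0 samples and 5.89 ± 0.270 over M1 samples, and passed the filter only through M1. Itgav fell from 11.9 ± 0.0577 to 7.63 ± 0.211 TPM, and Ptk2b rose 1.37-fold to 83.3 ± 6.31 TPM.

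Of 9 tested interferon and cytokine genes listed as inhibitory, 6 were called higher (66.7%), Ifnb1 included, and 3 lower (33.3%), Il10 included (median 0.40). After rescaling 6 were higher (66.7%) and 2 lower (22.2%). Tnf and Tnfaip3 had the smallest p-values, at 34.7-fold and 14.1-fold, although TNF is itself known to promote osteoclast formation and Tnfaip3 encodes A20, which restrains NF-κB. Ifngr1, a chain of the interferon-γ receptor, fell from 24.2 ± 0.378 to 11.6 ± 0.121 TPM, and Il10, which passed the filter only through M0, had 2.13 ± 0.680 TPM there and 0.268 ± 0.0725 TPM in M1. Only 2 of 7 MITF targets outside osteoclasts were tested. Gpnmb had 469 ± 14.1 and 459 ± 9.43 TPM and did not pass (limma adjusted p = 0.54), but became a higher call with the sign turned once rescaled. Mcoln1 fell from 28.9 ± 0.752 to 22.1 ± 1.78 TPM, a call lost after rescaling. The melanocyte genes Tyrp1, Dct and Mlana had no read in any library.

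**Figure D4:**
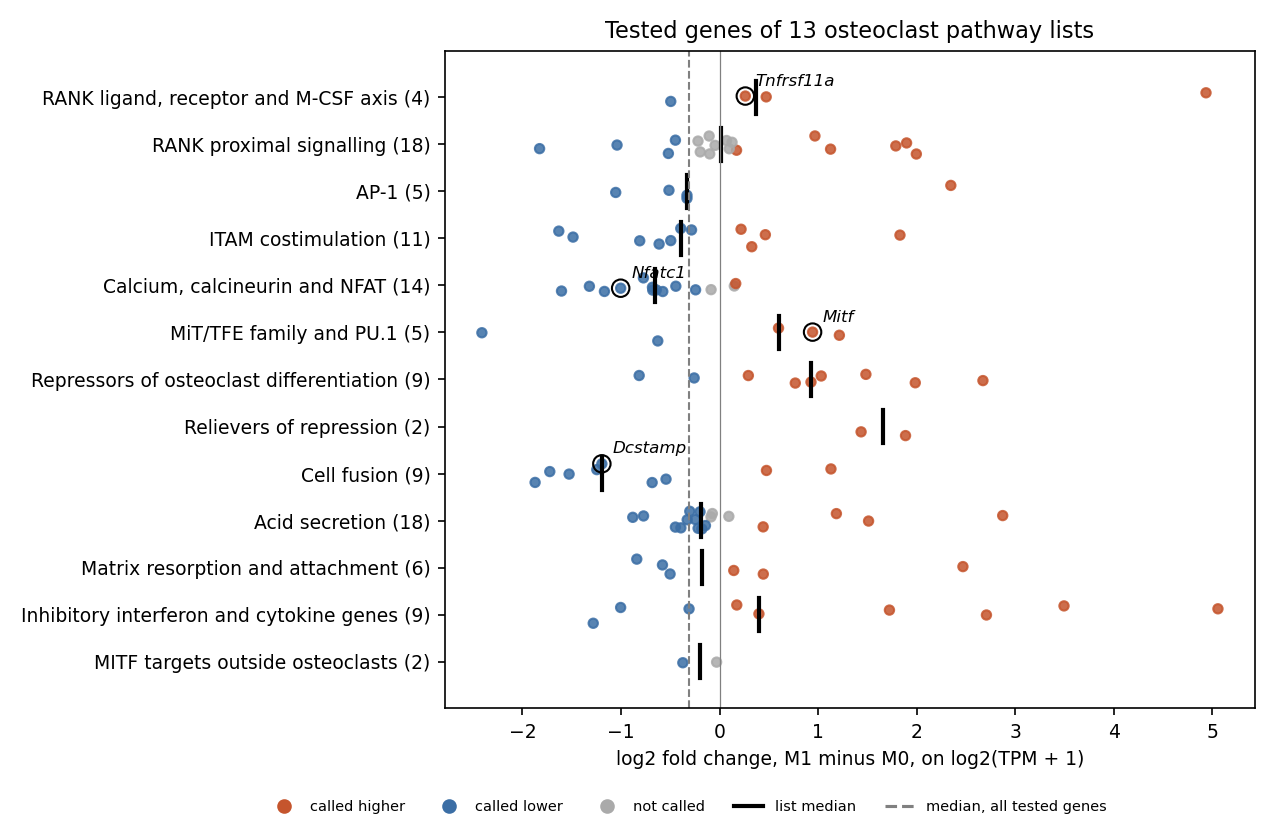
Log2 fold change of M1 over M0 on log2(TPM + 1) (horizontal axis) of each tested gene in 13 osteoclast pathway lists (rows, with the number tested), coloured by call; black bars are list medians, circles mark Tnfrsf11a, Nfatc1, Mitf and Dcstamp, and the dashed line is the median of all tested genes, -0.31. The fusion list has the lowest median, -1.19, which is Dcstamp's own value, and the 2 relievers of repression the highest, 1.66. Both medians rest in part on genes that had to differ (Dcstamp and Sh3pxd2a in the first, Prdm1 in the second).

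By distance between mean-centred log2(TPM + 1) profiles over the 6 samples, the genes most like Mitf were Lrp10 (distance 0.0817) and Fcrlb (0.0963). Those most like Tnfrsf11a were the proteasome subunit Psma2 (0.0605) and Tmem128 (0.0665). Zfand2a (0.0515) and Phf20 (0.0573) were closest to Nfatc1, and Bcl6b (0.0669) and Pdcd4 (0.123) to Dcstamp. These distances describe likeness in 2 states only, where genes with a like change on log2(TPM + 1) lie close together. Ratios of mean TPM can still differ, because low genes show less than their full change on that scale. Fcrlb was 6.60-fold higher beside 1.98-fold for Mitf, and Pdcd4 was 3.39-fold lower beside 7.87-fold for Dcstamp. Fcrlb passed the filter only through M1 and Bcl6b only through M0.

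**Figure D5:**
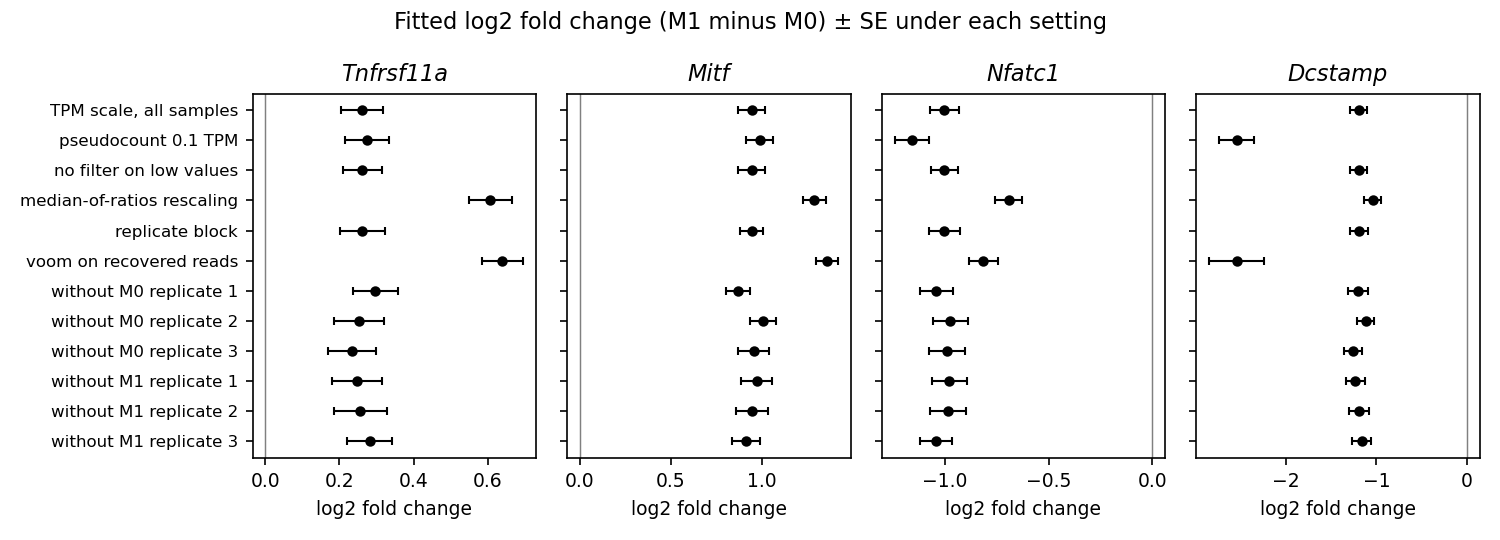
Fitted log2 fold change of M1 over M0 (horizontal axis, points, with SE as bars) of the 4 tested osteoclast genes under each setting (rows). All 4 keep their sign: Tnfrsf11a ranges from 0.23 to 0.64, Mitf from 0.87 to 1.36, Nfatc1 from -1.16 to -0.69 and Dcstamp from -2.54 to -1.04. Dcstamp passed the filter only through M0 and had to differ.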

How the data were processed

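RNA was measured in 3 M0 and 3 M1 samples. Tools named in the submitters' processing notes, without their roles, are HOMER 4.11.1, STAR 2.7.5a, DESeq2 and bcl2fastq; the build is mm10. The authors deposited a TPM value for each gene in each sample, as the file headers state. These values were used as deposited. Their sum per sample was 551257 to 555447 in M0 and 568081 to 572349 in M1, so the samples do not share a common total. A second table holds, per the file headers, log2 values, the authors' log2 fold change and the authors' p-value and adjusted p-value; its log2 expression values were not used. The 11297 genes that reached 1 TPM in 3 or more samples were fitted on log2(TPM + 1) in R 4.3.3 by limma 3.58.1, using its trend and robust options and group as the only term. P-values were adjusted by Benjamini-Hochberg over all tested genes. Reads were recovered from TPM times transcript length, whole within 0.1 for 99.8% to 99.99% of values above 0. Intervals from reads are 95%, are on the TPM scale without rescaling, and cover counting error only. Alternatives were a pseudocount of 0.1 TPM, no filter, median-of-ratios rescaling, the replicate number as a block, voom on the recovered reads and leaving out each sample. The procedure was tested on simulated data in which a small part of the genes changed, in both directions. Those data held no shift of most genes between groups, so they do not bear on the choice of scale. The members, lists and tests were chosen with earlier results of these data known. Named genes were the 9 members, the list genes with the smallest p (up to 2 in each direction), the most abundant gene not called, paralogs of members, a few regulators fixed by name, and the most alike genes. Of the pathway genes, 1 had no entry in the table. Some values that the rule would name are not reported here.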

Additional observations from a re-analysis of the deposited data

How the results depend on the processing

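All 4 tested osteoclast genes kept their direction and call under the 11 alternatives run, with limma adjusted p-values of at most 0.0082. Each time 2 were called higher and 2 lower. Dcstamp, 1 of the 2 lower, passed the filter only through M0 and had to differ, so its call adds no support where the filter applied. Median-of-ratios rescaling and voom on the recovered reads gave 4305 and 4359 genes called higher over all tested genes (2111 on TPM) and 4002 and 4026 called lower (6944 on TPM). Of the pathway genes, 35 and 36 were called lower under them, against 56 on TPM. Leaving out 1 sample at a time gave 39 to 42 pathway genes called higher and 54 to 61 called lower. With the replicate number as a block the pathway counts were 42 and 58, and over all tested genes 2143 and 7016. The samples share only a number: deviations of same-numbered samples from their group means correlated at 0.07, -0.08 and 0.04, and not every sample correlated best with its own number. Depth limits the 5 genes below 1 TPM, for which 3 reads in a library stand for 0.0505 to 0.168 TPM.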
